A study of Mus musculus with 19 samples.

Results

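The genes described are 10 genes of antigen presentation in the mouse tongue epithelium: the class II genes H2-Aa, H2-Ab1, H2-Eb1, Cd74 and Ciita, the class I genes H2-K1, H2-D1, B2m and Tap1, and Cd207, a marker of Langerhans cells. They were chosen by name, and all 10 were found among the 24689 gene symbols of the expression table. Bulk RNA sequencing was done on epithelium of 19 tongues, collected 15 days after transgenes were switched on, with 5 N mice, 5 E mice, 3 Y mice and 6 EY mice. The comparisons ask how the E6-E7 oncogenes of human papillomavirus and an active form of YAP, alone or together, change the transcripts of this tissue.

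E mice carried Krt14-CreERT, LSL-rtTA and tetON_E6-E7. Y mice carried Krt14-CreERT, LSL-rtTA and tetON_YAP1S127A, and EY mice carried all 4 of these transgenes. Of the N mice, mice 1, 2 and 3 carried Krt14-CreERT and LSL-rtTA, mouse 4 is labelled with LSL-rtTA alone, and mouse 5 with Krt14-CreERT and both effector transgenes but no rtTA. By the study's methods all lines also bore a tetON_H2B-GFP reporter, and all groups were littermates of 8 to 16 weeks given 3 intralingual doses of tamoxifen and a doxycycline diet. The Krt14 promoter restricts recombination to basal keratinocytes, which leaves leukocytes of the same tissue outside the reach of the driver. The epithelium was taken off as a sheet after enzyme digestion, and resident leukocytes can remain in such a preparation.

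Class I molecules are carried by nearly every nucleated cell. A heavy chain such as H2-K1 or H2-D1 pairs with the light chain B2m and is loaded with peptides that the Tap transporter brings into the endoplasmic reticulum. Class II molecules are pairs of alpha and beta chains made mainly by professional presenting cells, where Cd74, the invariant chain, guards the peptide groove and Ciita is the master transcriptional coactivator; interferon-gamma raises both pathways in many cell types. Langerhans cells are the dendritic-type cells of stratified epithelia, and Cd207 encodes langerin, the lectin of their Birbeck granules.

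Levels are in TPM, a unit that corrects reads for gene length and sums to 1000000 in each mouse. The values fell on whole-read steps, which gave 8269674 to 11007304 reads per mouse. Every one of the 10 genes was above 0 in all 19 mice and passed the filter of at least 0.1 TPM in at least 3 mice, as did 22745 genes in all. Fold changes are differences of group means of log2(TPM + 0.1) from limma, which understate changes of genes at low levels. A gene was called when the Benjamini-Hochberg adjusted p, over all genes tested, was below 0.01 and the log2 fold change was above 1 in size.

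**Figure D1:**
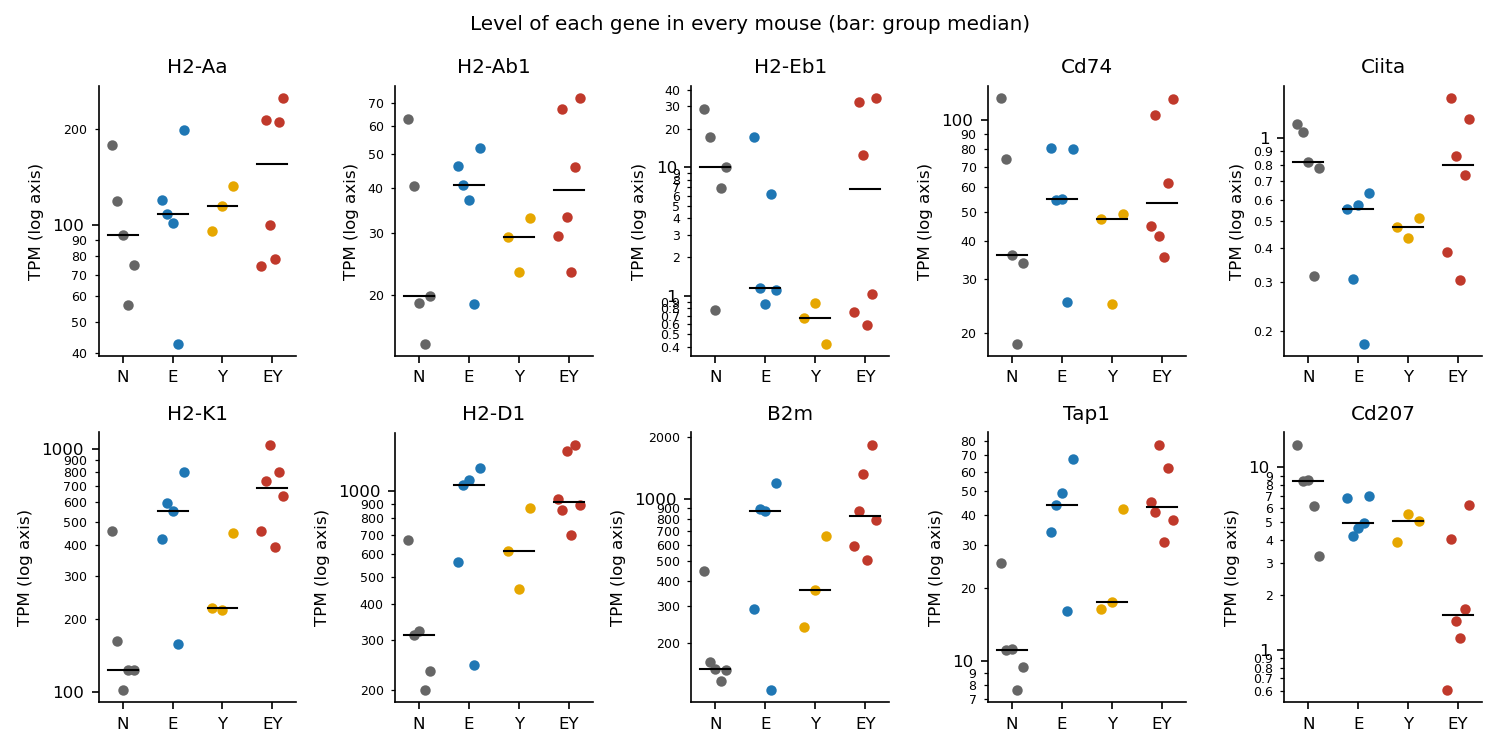
Level of the 10 genes in TPM on log axes, a point for each mouse in the 4 groups and a bar at the group median. B2m, H2-D1 and Tap1 lay higher in all 6 EY mice than in all 5 N mice, H2-Eb1 lay at separate levels among mice of N, E and EY, and Cd207 was lowest in EY mice.

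Between EY and N mice, 4 of the 10 genes were called higher, all of the class I pathway, where 12.6% of all genes tested were called higher. Cd207 was the 1 gene called lower, where 5.71% of all genes were. In all 6 EY mice 3 genes (H2-D1, B2m and Tap1) were higher than in all 5 N mice, against 20.9% of all genes tested. None of the 10 was lower in all EY mice than in all N mice, against 6.49% of all genes.

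B2m, the light chain of class I molecules, stood at 447, 161, 149, 130.3 and 146 TPM in N mice 1 to 5, at 290.3, 893, 871, 117 and 1201 TPM in E mice 1 to 5, and at 237, 359 and 658 TPM in the Y mice. In EY mice it ran from 503 TPM over a median of 831 TPM to 1839 TPM. N mouse 1 was far above the other N mice, E mouse 4 was below all of the N mice, and the EY mice did not overlap with the N mice. The group means were 207 ± 135 TPM (SD, n = 5) in N and 986 ± 507 TPM (SD, n = 6) in EY, a log2 fold change of 2.28 (SE 0.55, limma adjusted p = 0.0025), higher in 6 of 6 EY mice than in any N mouse. In bulk RNA, more cells of a type and more RNA per cell cannot be told apart.

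The heavy chain H2-K1 measured 457, 162, 101, 123 and 123 TPM in the N mice, 425, 596, 552, 156 and 801 TPM in the E mice, and 220.2, 217 and 448 TPM in the Y mice. In EY mice it ran from 394 TPM over a median of 688 TPM to 1036 TPM. N mouse 1 again stood high, and its value lay within the range of the EY mice, while the other N mice lay below all EY mice. The log2 fold change between EY and N was 1.98 (SE 0.43, limma adjusted p = 0.00108), with 4 of 6 EY mice above every N mouse.

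H2-D1, the other heavy chain, measured 673, 314, 324, 200.4 and 235 TPM in the N mice, 562, 1045, 1091, 245 and 1203 TPM in the E mice, and 613, 455 and 870.4 TPM in the Y mice. In EY mice it ran from 699.97 TPM over a median of 911 TPM to 1449 TPM. The EY mice lay above all N mice, narrowly over N mouse 1, and E mice 2, 3 and 5 lay within the range of the EY mice. The log2 fold change between EY and N was 1.65 (SE 0.39, limma adjusted p = 0.00217).

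Tap1, a subunit of the peptide transporter, measured 25.3, 11.1, 11.2, 7.63 and 9.52 TPM in the N mice, 34.0, 43.7, 49.0, 16.2 and 68.0 TPM in the E mice, and 16.5, 17.5 and 42.1 TPM in the Y mice. In EY mice it ran from 30.9 TPM over a median of 43.0 TPM to 77.4 TPM. All EY mice and all E mice but mouse 4 lay above every N mouse. The log2 fold change between EY and N was 1.98 (SE 0.38, limma adjusted p = 0.000351). Between E and N it was 1.68 (SE 0.39, limma adjusted p = 0.0214), which did not pass the threshold.

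All 4 class I genes were also called after quantile normalization and by limma voom on the recovered reads, and some calls were lost under other choices. Of all 22745 genes tested, 1632 were called higher after quantile normalization and 2303 by voom. With only the 3 N mice that carry Krt14-CreERT and LSL-rtTA, the log2 fold change was 1.71 for H2-K1 (adjusted p = 0.0172), 1.29 for H2-D1 (adjusted p = 0.0356) and 2.01 for B2m (adjusted p = 0.0285), each still above 1 but past the limit of 0.01, with N reduced from 5 to 3 mice. Tap1 (1.66) stayed called. After median-of-ratios scaling, which took the median change over the genes tested (log2) from 0.33 to 0.011 and the share of higher genes among those called from 68.8% to 43.8% (46.0% after quantile normalization and 57.2% with voom), H2-D1 (1.28, adjusted p = 0.0137) and B2m (1.91, adjusted p = 0.0103) missed the threshold, while H2-K1 (1.61) and Tap1 (1.60) passed. Reads of H2-K1, H2-D1 and the H2-Q genes can be hard to assign because the genes are much alike, and how such reads were counted is not given in the sources used here.

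**Figure D2:**
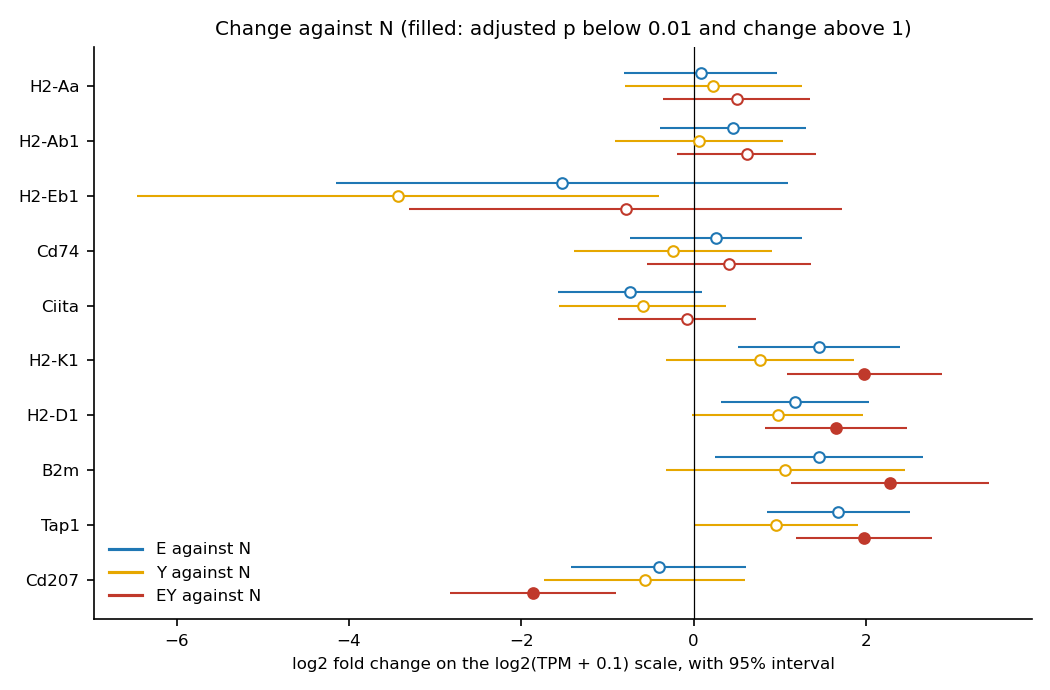
Log2 fold change of the 10 genes in E, Y and EY mice against N mice on the log2(TPM + 0.1) scale, with 95% intervals; filled points were called. The 4 class I genes and Cd207 were called between EY and N, and none was called in E or Y.

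The promoters of the called genes are shown because these 4 class I genes and Cd207 were the genes called. Of the 10 genes, 7 matched a promoter in the RefSeq table of build GRCm38.p6 (H2-Aa, H2-Eb1, H2-K1, H2-D1, B2m, Tap1 and Cd207). H2-Ab1, Ciita and Cd74 had no entry. The 200 bases before the start are given 5′ to 3′ on the strand of the gene. H2-K1 had 2 windows, of which 1 is shown, and its matches are those in the window shown. Motifs were searched on both strands: CCAAT (Y box), AGCAAC (X box core), GAAANNGAA (ISRE), TTCNNNGAA (GAS) and CATTCC (TEAD), and the capitals mark their matches.
B2m (chr2:122147487-122147686, + strand): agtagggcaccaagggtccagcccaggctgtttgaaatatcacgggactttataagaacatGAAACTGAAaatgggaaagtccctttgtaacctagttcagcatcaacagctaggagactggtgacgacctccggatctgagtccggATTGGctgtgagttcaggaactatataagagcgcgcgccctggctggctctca
H2-K1 (chr17:34000348-34000547, - strand): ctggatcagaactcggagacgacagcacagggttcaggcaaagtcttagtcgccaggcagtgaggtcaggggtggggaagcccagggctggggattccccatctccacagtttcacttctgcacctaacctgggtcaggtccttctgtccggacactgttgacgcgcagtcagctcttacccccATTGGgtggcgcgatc
H2-D1 (chr17:35262894-35263093, + strand): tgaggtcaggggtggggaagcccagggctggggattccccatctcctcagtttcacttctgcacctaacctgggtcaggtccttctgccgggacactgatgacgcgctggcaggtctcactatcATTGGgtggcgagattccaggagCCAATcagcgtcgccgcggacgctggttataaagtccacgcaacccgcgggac
Tap1 (chr17:34187356-34187555, + strand): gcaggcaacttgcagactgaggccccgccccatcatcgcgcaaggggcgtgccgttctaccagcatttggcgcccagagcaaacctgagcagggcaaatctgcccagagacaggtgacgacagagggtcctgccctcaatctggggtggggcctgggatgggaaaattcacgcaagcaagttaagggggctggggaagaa
Cd207 (chr6:83677858-83678057, - strand): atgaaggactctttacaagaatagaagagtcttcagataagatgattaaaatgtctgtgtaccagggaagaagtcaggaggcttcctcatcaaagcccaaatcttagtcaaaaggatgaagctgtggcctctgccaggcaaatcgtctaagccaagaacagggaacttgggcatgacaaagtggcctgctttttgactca
CCAAT was found in B2m (1 match), H2-K1 (1), H2-D1 (2), H2-Aa (1) and H2-Eb1 (2). It was in 29.3% of all 32851 windows of this length. GAAANNGAA was found in B2m, and in 5.57% of windows. AGCAAC was found in H2-Eb1, and in 10.2% of windows. TTCNNNGAA (5.49% of windows) and CATTCC (10.1%) had no match in the 7 windows, nor did any of the motifs in Tap1 or Cd207. A match is a run of letters and no evidence of binding. Only these fixed patterns were searched, so the lack of a match does not show that a related site is absent.

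A wider list of class I presentation genes was measured too, and its 25 genes include B2m, H2-D1, H2-K1 and Tap1. Between EY and N 11 of the 25 were called higher, those 4 among them, and 2 lower. Of all genes tested, 12.6% were called higher and 5.71% lower. The list median of the log2 fold change was 1.41, against 0.33 over all genes tested. After scaling the medians were 1.05 and 0.011. The immunoproteasome subunits, which cut proteins into peptides suited to class I, were among the higher genes, with log2 fold changes of 3.47 for Psmb8, 2.90 for Psmb9 and 1.85 for Psmb10. Tap2, the partner of Tap1, rose by 1.65, and H2-Q7 and H2-Q4, nonclassical heavy chains, by 4.11 and 2.39. Nlrc5, the class I counterpart of Ciita, had 1.62 (limma adjusted p = 0.0354) and was not called.
Cd1d1, which presents lipids, fell by 2.96 and Mr1, which presents vitamin metabolites, fell by 1.34 on the log2 scale. In E against N limma called none of the 25 genes, where 1.2% of all genes were called, and 15 had an unadjusted p below 0.05 (14.8% of all genes), with a list median of 0.80. In Y against N it called none, where 4.58% of all genes were called, and 10 had an unadjusted p below 0.05 (28.9% of all genes), with a list median of 0.60.

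None of the 5 class II genes was called between EY and N. H2-Aa, the alpha chain of I-A, ranged from 42.7 to 249 TPM over the 19 mice, and H2-Ab1, its beta chain, from 14.6 to 72.0 TPM. Cd74 ranged from 18.5 to 118 TPM. Their log2 fold changes between EY and N were 0.50 (SE 0.40), 0.62 (SE 0.38) and 0.41 (SE 0.45), and the mice of the groups overlapped. Ciita was low in every mouse, at 0.180 to 1.40 TPM, with a log2 fold change of -0.07 (SE 0.38).

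H2-Eb1, the beta chain of I-E, behaved in a different manner. It stood at 28.4, 17.4, 0.770, 6.92 and 10.2 TPM in N mice 1 to 5, and at 17.2, 1.14, 0.854, 6.25 and 1.10 TPM in E mice 1 to 5. It was 0.667, 0.882 and 0.423 TPM in the Y mice, and 0.741, 32.2, 12.5, 0.594, 1.04 and 34.6 TPM in EY mice 1 to 6. No mouse lay between 1.14 and 6.25 TPM, and mice at both levels occurred within N, E and EY. All 3 Y mice were at the low level.

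The ratio of H2-Eb1 to H2-Ab1 in TPM was 0.450, 0.427, 0.0405, 0.475 and 0.513 in the N mice and 0.372, 0.0278, 0.0231, 0.331 and 0.0212 in the E mice. It was 0.0229, 0.0380 and 0.0128 in the Y mice, and 0.0253, 0.481, 0.378, 0.0256, 0.0226 and 0.481 in EY mice 1 to 6. The ratio thus had no value between 0.0405 and 0.331, although H2-Ab1 itself ran without such a gap. Group means of H2-Eb1 describe few of the mice. The log2 fold change was -3.43 (SE 1.44, limma adjusted p = 0.119) between Y and N and -0.79 (SE 1.19) between EY and N, and neither was called. What sets the level of H2-Eb1 in a mouse was not tested, and the strain background of each mouse is not given in the sources used here.

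**Figure D3:**
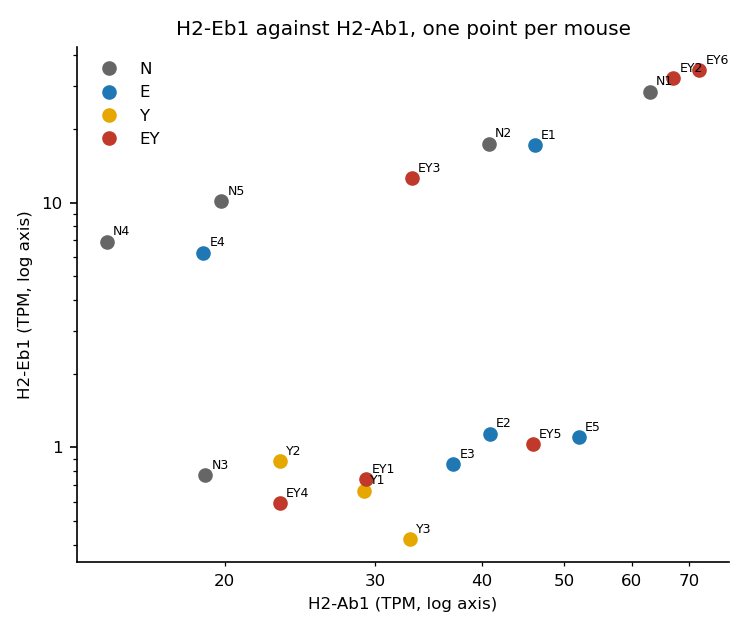
H2-Eb1 against H2-Ab1 in TPM on log axes, a labelled point for each mouse and a colour for each group. At similar H2-Ab1 levels, mice stand either at 0.423 to 1.14 TPM or at 6.25 to 34.6 TPM of H2-Eb1.

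Of the 16 tested genes of the class II list (18 genes in all), 1, the lysosomal protease Lgmn, was called higher and none lower between EY and N. Of all genes tested, 12.6% were called higher and 5.71% lower. The median log2 fold change was 0.57, against 0.33 over all genes, and after scaling 0.24 against 0.011. Genes of interferon-gamma signaling, which can raise both pathways, had 9 of 18 called higher and none lower, against the same shares of all genes. Their median was 1.84 (1.48 after scaling). The chemokines Cxcl10 and Cxcl9, induced by interferon, had log2 fold changes of 4.59 and 3.73, and the receptor gene Ifngr1 rose by 1.87. Ifng itself was listed at 0 TPM in 4 of 5 N mice, 4 of 5 E mice, 3 of 3 Y mice and 2 of 6 EY mice, and the mice above 0 had 1 to 5 recovered reads.

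**Figure D4:**
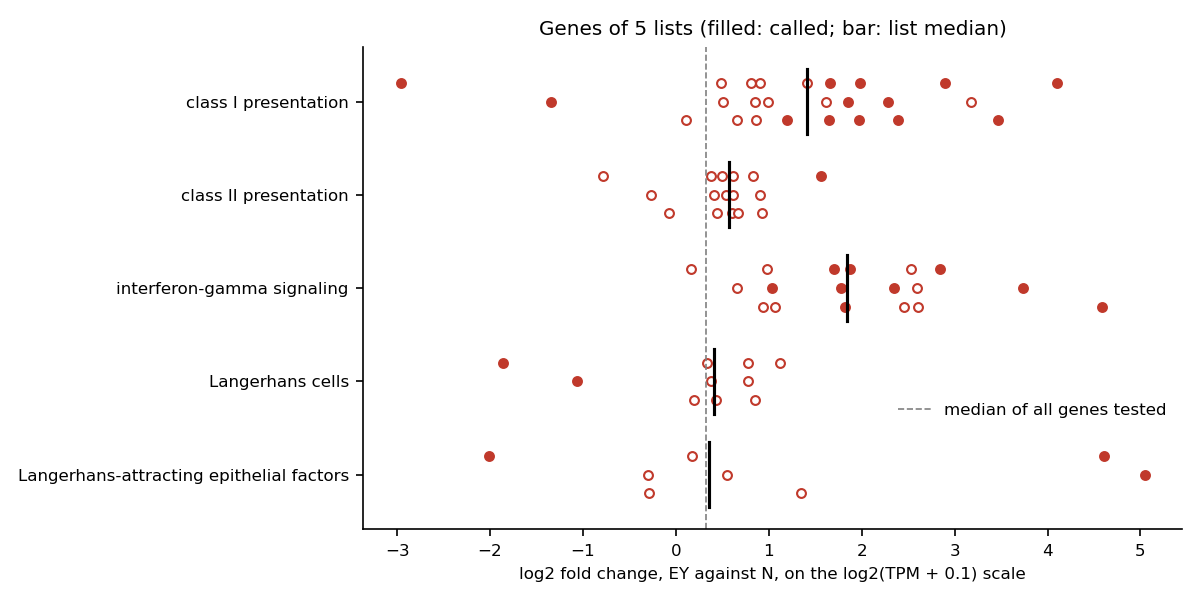
Log2 fold change between EY and N of the genes of 5 lists, with a bar at each list's median and a dashed line at the median of all genes tested (0.33). Filled points were called: 13 of 25 in class I presentation, 1 of 16 in class II presentation, 9 of 18 in interferon-gamma signaling, 2 of 10 in Langerhans cells and 3 of 8 in the attracting factors. Of all genes tested, 12.6% were called higher and 5.71% lower.

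Cd207 stood at 13.3, 8.38, 8.48, 6.15 and 3.26 TPM in the N mice, 6.76, 4.19, 4.67, 4.93 and 6.99 TPM in the E mice, and 3.91, 5.55 and 5.11 TPM in the Y mice. In EY mice it ran from 0.603 TPM over a median of 1.56 TPM to 6.24 TPM, resting on 6 to 70 reads per mouse. EY mice 1, 3, 4 and 5 lay below all other mice, while EY mice 2 and 6 lay within the range of the N mice. The means were 7.91 ± 3.68 TPM (SD, n = 5) in N and 2.53 ± 2.17 TPM (SD, n = 6) in EY, a log2 fold change of -1.86 (SE 0.46, limma adjusted p = 0.00314). The call was lost without N mouse 1 (-1.64, adjusted p = 0.0111) and when only the N and EY mice were fitted (adjusted p = 0.0198), and over all alternatives the adjusted p ran from 0.000318 to 0.0198.

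By medians and by means, Cd207 was highest in N and lowest in EY mice. The medians were 4.93 TPM in E and 5.11 TPM in Y and the means 5.51 and 4.86 TPM, so the order of E and Y depends on the measure, and the groups differed by less than their spread (log2 fold change of Y against E -0.16, SE 0.55). Between EY and E the log2 fold change was -1.46 (SE 0.46, limma adjusted p = 0.0192), which missed the threshold. It passed after median-of-ratios scaling (-1.71, adjusted p = 0.00608) and quantile normalization, with voom, without EY mouse 2 (-1.67, adjusted p = 0.0099) and without EY mouse 6 (-1.79, adjusted p = 0.00224), and over all alternatives the adjusted p ran from 0.00224 to 0.0463.

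Of the 10 genes on the Langerhans list, none was called higher between EY and N, where 12.6% of all genes were. Cd207 and Id2 were called lower, 2 of 10 where 5.71% of all genes were. The list median was 0.41, against 0.33 over all genes tested, and 0.09 after scaling, against 0.011. Id2, a transcription factor that keratinocytes express too, was the most abundant of the list. Other genes with known roles in these cells, Itgax (0.20, SE 0.57) and Csf1r (0.38, SE 0.41), were not called. Tgfbr1 was not called either, but all EY mice lay above all N mice, with means of 5.72 TPM in EY and 3.29 TPM in N. It was the 1 gene of the list higher in all EY mice, where 20.9% of all genes tested were. Id2 was the 1 gene lower in all of them, where 6.49% of all genes were. By limma, 5 of the 10 had an unadjusted p below 0.05, where 48.6% of all genes did. Among 8 factors that epithelia make and that attract or sustain Langerhans cells, Ccl20 (4.61) and Tslp (5.05) were called higher and Cxcl14 (-2.01) lower, with a list median of 0.36 (0.00 after scaling). Y mice, in which Cd207 was not called, shared some of these calls against N: Ccl20 (5.64) and Tslp (3.99) were called higher and Id2 (-1.10) lower, while Cxcl14 (-0.96, SE 0.58) was not called. Mean Ccl20 was 0.530 TPM in N, 0.631 TPM in E, 21.0 TPM in Y and 8.55 TPM in EY mice. In E mice no gene of either list was called by limma against N, where 1.2% of all genes were. The lists had 0 and 1 genes at an unadjusted p below 0.05, against 14.8% of all genes. The cytokine Il34, which Langerhans cells need, had -0.30 (SE 0.30) between EY and N and was not called.

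Relative levels put Cd207 beside a class II chain and beside Ptprc, the gene of the leukocyte antigen CD45, in the same mouse, as the difference of log2(TPM + 0.1). Cd207 relative to Cd74 was -3.13, -3.14, -2.07, -1.57 and -3.34 in the N mice and from -5.99 to -4.21 in the EY mice, with the E and Y mice between -3.67 and -2.15. All 6 EY mice lay below all 5 N mice and all 5 E mice. The mean difference between EY and N was -2.27 (two-sided exact permutation p = 0.00433, adjusted p = 0.026 over 18 tests), and 0.00433 is the smallest p that 6 against 5 mice allow. Between EY and E it was -1.60 (exact permutation, adjusted p = 0.026). That difference missed the limit of 0.05 in 11 of 22 alternatives: leaving out any N mouse or any E mouse took the adjusted p to 0.0571, and using only the 3 N mice took it to 0.0714. Over the alternatives the difference ran from -1.75 to -1.21. N mice enter it through the adjustment over the 18 tests alone.

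Cd207 relative to Ptprc differed between EY and N by -2.59 (two-sided exact permutation p = 0.00433, adjusted p = 0.026), with all 6 EY mice below all N mice. Between EY and E the difference was -2.23 and did not pass the limit of 0.05 (exact permutation, adjusted p = 0.0584). It passed without EY mouse 6 (-2.61, adjusted p = 0.0357), the only change in 22 alternatives, over which the adjusted p ran from 0.0357 to 0.107. Cd74 relative to Ptprc differed by -0.32 between EY and N (exact permutation, adjusted p = 0.557). Leaving out any of the N mice took the adjusted p of both Cd207 differences between EY and N to 0.0571, where the smallest unadjusted p that 6 against 4 mice allow is 0.00952.

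**Figure D5:**
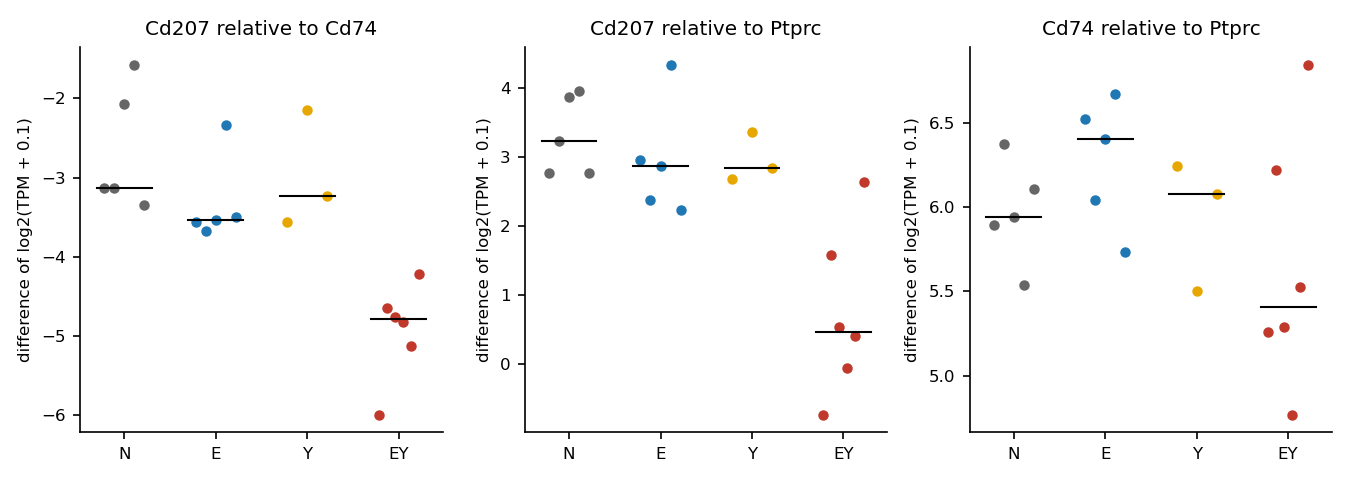
Difference of log2(TPM + 0.1) between Cd207 and Cd74, Cd207 and Ptprc, and Cd74 and Ptprc in each mouse, with a bar at the group median. For Cd207 relative to Cd74 all 6 EY mice lie below all mice of the other groups.

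The genes whose deviations from the group means were most like those of each gene were sought among 15593 genes over 19 mice, as a description. For Cd74 the closest was H2-Ab1 (Pearson r = 0.974), followed by Csf2rb2 (0.923), Csf2rb (0.918), Laptm5 (0.915) and Loxl1 (0.911). B2m was closest to Slfn2 (0.965), Sp100 (0.962), Mx1 (0.962), Rtp4 (0.952) and Nlrc5 (0.942). The closest to Cd207 were Cnp (0.845), Dlk1 (0.833), Sema4c (0.829), Fndc1 (0.821) and Lrig3 (0.819), none of them on the Langerhans list.

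Marker lists of the cells in the tissue were examined between EY and N, since class II genes are expressed mainly by leukocytes. Of all genes tested, 12.6% were called higher and 5.71% lower, and the counts of these short lists are to be read beside those shares. All 6 leukocyte genes were measured and none was called, with a median log2 fold change of 0.83 (0.49 after median-of-ratios scaling, as for the values in brackets below). Their summed level was 9.85 to 43.9 TPM in N and 29.4 to 39.2 TPM in EY, and Coro1a was the most abundant. N mouse 1 had the 43.9 TPM, and the other N mice, at 9.85 to 19.8 TPM, lay below all EY mice. Macrophage and monocyte genes had 0 of 12 called and a median of 1.42 (1.09), with sums of 215 to 980.3 TPM in N and 210.5 to 446 TPM in EY, mostly Lyz2. The 980.3 TPM was in N mouse 1 too, and the other N mice had 215 to 434 TPM. Dendritic cell genes had 3 of 11 called higher and a median of 0.55 (0.41), T and NK cell genes 1 of 10 higher and 1.27 (1.04), and neutrophil genes 4 of 9 higher and 2.87 (2.72).

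Keratinocyte genes had 3 of 8 called higher and 3 lower and a median of 0.50 (0.13 after scaling), with sums of 72526 to 140080 TPM in N and 44799 to 60822 TPM in EY, and Krt13 was the most abundant. Skeletal muscle genes had none of 6 called, a median of 1.79 (1.42) and sums of 11.3 to 233 TPM in N and 34.3 to 1264 TPM in EY. The highest sums were in N mouse 2 and EY mouse 3, and the next highest were 58.7 TPM in N and 209 TPM in EY. Fibroblast genes had 1 of 5 called lower and a median of 0.45 (0.08), and endothelial genes none of 4 called and 0.68 (0.45). The part of cell composition in the changes of the 10 genes was not tested.

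The remaining comparisons called none of the 10 genes with limma. Against N, the Y mice had 0 of 10 called (4.58% of all genes tested in either direction) and 1, H2-Eb1, at an unadjusted p below 0.05 (28.9% of all genes). The E mice had 0 called (1.2% of all genes) and 4, B2m, H2-D1, H2-K1 and Tap1, at an unadjusted p below 0.05 (14.8% of all genes). Limma voom on the recovered reads called none of the 10 in either, where it called 1077 of all 22745 genes in Y and 267 in E. The E values for H2-K1 (1.45, adjusted p = 0.0929), H2-D1 (1.18, adjusted p = 0.146) and B2m (1.46, adjusted p = 0.216) were positive but missed the threshold. Leaving out N mouse 1 or E mouse 4 brought Tap1 to a call between E and N.

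EY against Y gave 0 called (2.0% of all genes), 3 at an unadjusted p below 0.05 (Cd207, H2-K1 and Tap1, where 23.9% of all genes were) and none by voom. EY against E gave 0 called (12.8% of all genes), 1 at an unadjusted p below 0.05 (43.6% of all genes) and 1 by voom, Cd207 in both. Y against E gave 0 called (2.48% of all genes), none at an unadjusted p below 0.05 (23.3% of all genes) and none by voom. The interaction, the change in EY beyond the sum of those in E and Y, was called for 0 of the 10 (0.176% of all genes), for 1, H2-Eb1, at an unadjusted p below 0.05 (13.5% of all genes) and for none by voom. For B2m it was -0.24 (SE 0.85) and for Cd207 -0.89 (SE 0.72), so a call in EY and not in E or Y does not show that the effects differ. Voom called 489 of all genes between EY and Y, 2890 between EY and E, 649 between Y and E and 118 for the interaction.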

How the data were processed

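RNA of the tongue epithelium of 19 mice was sequenced after oligo-dT selection. The authors deposited a table of TPM per gene and mouse; the submitters' processing notes name STAR 2.7.9, SAMtools 1.7, HTSeq 0.13.5, DESeq2 1.34.0 and the build GRCm39, as do the study's methods, which name Kallisto for enrichment analysis. How counts became TPM is not given in the sources used here. Columns were matched to mice by their descriptions. Whole reads were recovered from the TPM steps (within 0.0001 of a whole number) for 24680 of 24680 genes above 0. Genes reaching 0.1 TPM in 3 or more mice (22745) were kept, and log2(TPM + 0.1) was fitted with limma 3.58.1 (R 4.3.3, trend) using 4 group means; p was adjusted by Benjamini-Hochberg over all genes. Tests were first run on simulated data. Exact permutation tests, two-sided, compared relative levels (scipy 1.17.1), adjusted over 18 tests. The genes and the 15 lists (156 genes) were chosen with earlier results of these data known. The result of 1 list is not reported here. All 10 genes are named. Of each list, counts, medians and called, most abundant or strongly changed genes are named. Alternatives were other pseudocounts, filters, scalings, thresholds and control mice, a replicate block, leaving out each mouse, and voom.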

Additional observations from a re-analysis of the deposited data

Results flagged for a closer look

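B2m in N mouse 1 (447 TPM) lay far above the other N mice (130.3 to 161 TPM): its gap to the nearest was 0.829 of the group's range on the log2(TPM + 0.1) scale. In E mouse 4, Cd207 relative to Cd74 was -2.33, against -3.67 to -3.50 in the other E mice, a gap of 0.871 of the range. These were 2 of 39 groups of values examined, and chance flags about 1 group in 20. N mouse 1 also had the highest H2-K1, H2-D1, Tap1 and Cd207 of the N mice, and the highest summed levels of leukocyte (43.9 TPM), macrophage and monocyte (980.3 TPM), fibroblast (252 TPM) and interferon-gamma signaling genes (180.3 TPM). E mouse 4 had the lowest B2m, H2-K1, H2-D1 and Tap1 of the E mice, and the lowest summed leukocyte (11.04 TPM), macrophage and monocyte (143 TPM), T and NK cell (0.244 TPM) and neutrophil genes (5.93 TPM). The part of these cells and signals in the levels of both mice was not tested.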

How the results depend on the processing

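Between EY and N, 5 of the 10 genes were called, where 4157 of all 22745 genes tested were. After median-of-ratios scaling 3 were called (3512 of all genes), and 2 with only the 3 N mice of the Krt14-CreERT/LSL-rtTA genotype (3341 of 22647). Leaving out each mouse in turn gave 4 to 5 (3777 to 4212 of all genes). Between E and N 1 gene was called at an adjusted p below 0.05 (414 of all genes) and 0 to 1 when a mouse was left out (221 to 328). Between EY and E 1 gene was called after median-of-ratios scaling (2572 of all genes), after quantile normalization (2600) and at an adjusted p below 0.05 (3653). Voom on recovered reads, an alternative added after the data were seen, also called 1 (2890 of all genes). Leaving out a mouse gave 0 to 1 (2576 to 3029).

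With mouse number as a replicate block, 5 of the 10 genes were called between EY and N (3989 of all genes) and 1 between EY and E (2814). Over 24 pairs of mice with the same number the correlation of deviations was -0.043 to 0.076. The median was 0.012, against -0.008 in other pairs, and 6 of 19 mice correlated best with their own number. The labels do not tie equal numbers together, but weak correlations do not show that the mice are unpaired. EY mouse 6 is the only mouse with its number, so the block takes it out of the comparison. Cd207 between EY and E was -1.79 with the replicate block and equally -1.79 without EY mouse 6 (called in both). The block changed no other count.

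Cd207 relative to Ptprc between EY and N was -1.75 with a pseudocount of 1 TPM (adjusted p = 0.0519, exact permutation) and -2.56 with the 3 N mice, and Cd207 relative to Cd74 was -2.14 with the 3 N mice; each missed the limit of 0.05. Leaving out a mouse gave -2.97 to -2.30 and -2.45 to -2.004, and fewer mice raise the smallest p possible. Other causes were not tested. No called result reversed. Of the single log2 fold changes and the other relative levels under these alternatives, 2461 kept their side of the threshold, 11 newly passed it and 18 no longer did, 11 of these for Cd207 relative to Cd74 between EY and E. With 8269674 to 11007304 reads per mouse, Cd207 in EY mice rests on few reads, which limits its precision.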

Other observations

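The class I-like genes H2-T23 and H2-T22 were looked at mouse by mouse after their values were seen. H2-T23 stood at 70.6, 46.6, 14.7, 48.0 and 46.1 TPM in N mice 1 to 5 and at 78.2, 33.4, 24.8, 65.3 and 31.1 TPM in E mice 1 to 5. It was 6.32, 5.77 and 18.2 TPM in the Y mice and 20.1, 98.2, 154, 13.1, 17.9 and 96.8 TPM in EY mice 1 to 6. H2-T22 was 6.26 TPM in N mouse 3, against 27.6 to 48.1 TPM in the other N mice. N mouse 3 was also the N mouse with the lowest H2-Eb1. The E mice 2, 3 and 5 and the EY mice 1, 4 and 5, which had the lowest H2-Eb1 of their groups, had the lowest H2-T23 of their groups too, and all 3 Y mice were low in H2-Eb1. No relation between these genes was tested.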
